A study of Mus musculus with 6 samples.

Results

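ATAC-seq of mouse kidney was used to describe open chromatin at the promoters of long noncoding RNAs (lncRNAs) that lie away from the start sites of protein-coding genes. The members are distinct intervals of the deposited peak list on the 19 autosomes with any base at most 1 kb from an annotated lncRNA transcription start site (TSS) and no base within 3 kb of the TSS of a protein-coding transcript. They were chosen by a fold enrichment of at least 5 over background at the highest summit of the interval. Their fold values are therefore given as a description only. Of 279569 distinct intervals, 6749 (2.41%) were members. Before the fold limit, 18063 intervals met the position rule, and 37.4% of these passed it, compared with 24.4% of all 274808 autosomal intervals. Both shares follow from the rule, and nothing is read from them.

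The study compared kidneys of WT mice, which are Acly fl/fl animals without Cre, with kidneys of Acly cKO mice, the tubule-specific Acly knockout, in which Ksp-Cre (Cdh16-Cre) deletes the floxed allele broadly across the tubular epithelium. Acly encodes ATP-citrate lyase, which makes acetyl-CoA from citrate. Kidney cortex came from 3 WT and 3 Acly cKO samples labelled with the treatment Control. By label, batches 1 and 2 hold WT samples alone and batches 4 and 5 Acly cKO samples alone, and a batch effect cannot be told apart from genotype. The floxed allele is carried by both groups, and cells outside the tubule keep Acly in both. The labels give no age, and the age range in the study's methods stands with its injury models, not with these samples.

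The deposited peak list was called on pooled libraries and holds no column for a single sample. Every value below therefore describes the pool, without replicates, without a contrast between genotypes and with unknown depth. Intervals of shares are 95% intervals that cover counting error only, and neighbouring intervals are not independent of each other. The pool carried the marks of tubule: an interval with a fold of at least 5 lay within 1 kb of a TSS for 6 of 6 proximal tubule markers, 4 of 4 markers of the thick limb and distal tubule, and 2 of 3 collecting duct markers. The podocyte markers (0 of 2), the immune marker Ptprc (0 of 1) and genes of other organs (0 of 6) had none, and 1 of 2 endothelial markers had one.

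An lncRNA is a transcript made by RNA polymerase II that is not translated into a long protein. Some lncRNAs build nuclear bodies, some silence neighbouring genes in cis, and others serve mainly as precursors from which snoRNAs or miRNAs are cut. Many start in regions that also look like enhancers, and promoters in mammals fall into a class rich in CpG dinucleotides, typical of broadly expressed genes, and a CpG-poor class more typical of tissue-restricted genes.

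To show what the members look like as sequence, the 200 bases around the highest summit are printed for a pair of them, on the strand of the lncRNA (GRCm39). The promoter of Snhg8, a snoRNA host, stands for the CpG-rich class and has 19 CG dinucleotides, in capitals. The start of Wt1os, the antisense transcript beside the nephron regulator Wt1, stands for the CpG-poor majority and has 5, also in capitals.
Snhg8, chr3:123302078-123302277, minus strand: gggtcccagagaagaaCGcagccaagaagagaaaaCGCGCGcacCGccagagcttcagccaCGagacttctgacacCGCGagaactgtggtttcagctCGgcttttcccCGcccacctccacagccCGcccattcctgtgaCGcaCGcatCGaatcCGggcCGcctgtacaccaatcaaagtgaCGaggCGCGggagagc
Wt1os, chr2:104939252-104939451, minus strand: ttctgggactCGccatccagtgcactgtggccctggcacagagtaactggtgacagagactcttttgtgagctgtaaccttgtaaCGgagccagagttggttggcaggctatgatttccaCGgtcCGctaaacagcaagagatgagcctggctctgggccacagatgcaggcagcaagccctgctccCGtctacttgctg

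Snhg8 and Wt1os were chosen for display after their values were seen. The summit lay 145 bp upstream of the TSS for Snhg8 and 9 bp upstream for Wt1os. The strongest member in the CpG-rich class with the summit within 200 bp of the TSS was 2610005L07Rik (chr8:20016054-20017157, fold 147), which was also the strongest of that kind with a CTCF match. Its window carries the match in capitals, 15 CG dinucleotides and a summit 1 bp upstream of the TSS, and 81.8% of its 31-base words occur elsewhere in the genome.
2610005L07Rik, chr8:20016329-20016528, plus strand: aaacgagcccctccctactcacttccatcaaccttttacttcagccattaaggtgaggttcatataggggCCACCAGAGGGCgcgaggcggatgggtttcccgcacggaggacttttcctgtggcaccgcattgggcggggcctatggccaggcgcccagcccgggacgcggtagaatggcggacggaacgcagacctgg

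The members lay near the starts of a broad set of annotated lncRNA genes, a link made by distance alone. Of 31151 autosomal lncRNA genes, 6616 (21.2%) had at least 1 member, and 990 had 2 or more. A single lncRNA gene lay within 1 kb of 5658 members and several lay within 1 kb of 1091. Most of these lncRNAs have no descriptive name: the nearest lncRNA of 84.2% of the members carries a Gm number and that of 9.79% a Rik symbol, while 267 members (3.96%) lay nearest to one with another symbol. The highest numbers per gene were 12 members at Pvt1 and 9 at Gm31718.

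Pvt1 (chr15:61888639-62249945), the long lncRNA gene downstream of the Myc oncogene, had members with folds up to 23.3 and a median of 7.79 along its 361 kb. At 3 of its starts the summit lay within 25 bp of a TSS, with folds of 21.5, 14.1 and 13.0, and the last of these (chr15:61908931-61911466) was CpG-rich. Lncppara (chr15:85529788-85595393), an lncRNA that holds the let-7b and let-7c-2 genes beside Ppara, the receptor that drives fatty acid oxidation genes in the proximal tubule, had 8 members with a median fold of 18.1 and a highest of 32.3. Counted by the nearest coding TSS, 14 members lay nearest to Katnal1, 14 to Tbc1d1, and 13 each to Myc, Serp2 and Tomm20. Along the chromosomes the members ranged from 2.31 per Mb on chromosome 6 to 3.49 per Mb on chromosome 13. Of all intervals with a fold of at least 5, members made up 8.69% on chromosome 6 and 12.8% on chromosome 13, the lowest and highest shares.

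The fold enrichment of the members ran from 5.04 to 822, with a median of 10.9 and quartiles of 7.20 and 18.4. For reference, 15267 intervals within 1 kb of a protein-coding TSS (coding promoter intervals) had a median of 28.4, and 33649 intervals more than 3 kb from any TSS (remote intervals) had a median of 8.38, both taken on autosomes with the same fold limit. The members just inside the limit, such as Teshl, stood at 5.04, and those just outside, such as Lincmd1, at 4.98. The values rise in steps of 0.0655, so 1 step separates these. The median member was 1791 bp wide and held 4 summits, while 13 members were at least 20 kb wide.

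**Figure D1:**
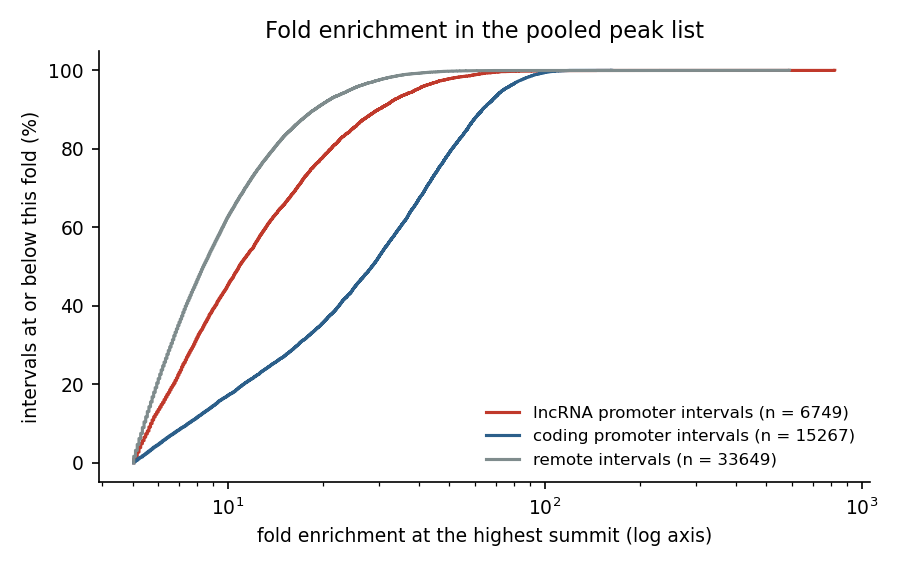
Cumulative share (%) of intervals by fold enrichment at the highest summit (log axis) for the lncRNA promoter intervals, coding promoter intervals and remote intervals, all with a fold of at least 5. The curve of the lncRNA promoter intervals lies between the others, with medians of 8.38 (remote), 10.9 (lncRNA) and 28.4 (coding).

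The 10 members with the highest fold mixed CpG-rich starts with repeated sequence. Gm75300 (chr2:98496583-98497676) stood far above the rest at 822, with 64.7% of the 31-base words of its window found elsewhere in the genome. Next came 2610005L07Rik, described above, and Gm56847 (chr8:19834288-19835510, fold 145), where 84.1% of the words were repeated. Gm72623 (chr5:146197790-146198175, fold 144) lay inside the gene Cdk8, with 25.3% of its words repeated. Gm69850 (chr1:177808725-177812441, fold 108) lay inside Catspere2, with 52.4% repeated. ENSMUSG00000126800 (chr8:4725330-4730270) reached 106 with no repeated words, and ENSMUSG00000127915 on chromosome 18 reached 100.2 with words that had a median of 11 copies. In all, 5 of the 7 members with a fold of at least 100 had a window in which 50% or more of the words were repeated.

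The remaining 3 of the top 10, like ENSMUSG00000126800, had no repeated words in the window: Gm26901 (chr1:7466536-7470099) at 97.6, Gm53541 (chr1:23293062-23301455) at 96.6 and Gm5112 (chr6:122785831-122789563) at 96.5. Snhg8 followed in 11th place at 93.9. Of the top 10, 6 were CpG-rich and 8 had the summit within 200 bp of the TSS. Over all members, a repeated window was found in 130 (1.93%, Wilson 95% interval 1.62% to 2.28%), which was 1.25 percentage points above coding promoter intervals (0.911 to 1.62) and 0.717 above remote intervals (0.391 to 1.09). The part of repeated sequence in these folds was not tested.

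CpG content set the members apart from coding promoters. A window of 500 bp around the summit was called CpG-rich when its GC content was at least 50% and its ratio of observed to expected CpG at least 0.6. Among the members 527 (7.81%, 7.19% to 8.47%) were CpG-rich, compared with 63.5% of coding promoter intervals and 0.755% of remote intervals. The difference from coding promoters was -55.7 percentage points (-56.7 to -54.7) and that from remote intervals 7.05 (6.43 to 7.72). The median observed/expected ratio was 0.265 in the members, 0.729 in coding promoter intervals and 0.204 in remote intervals, and the median GC content was 50%, 61.2% and 46.8%. The size of the gap depended on the fold: between folds of 5 and 10 the members were 22.3 percentage points below the coding promoter intervals of the same band. Without a fold limit, 4.19% of the 18063 intervals were CpG-rich.

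**Figure D2:**
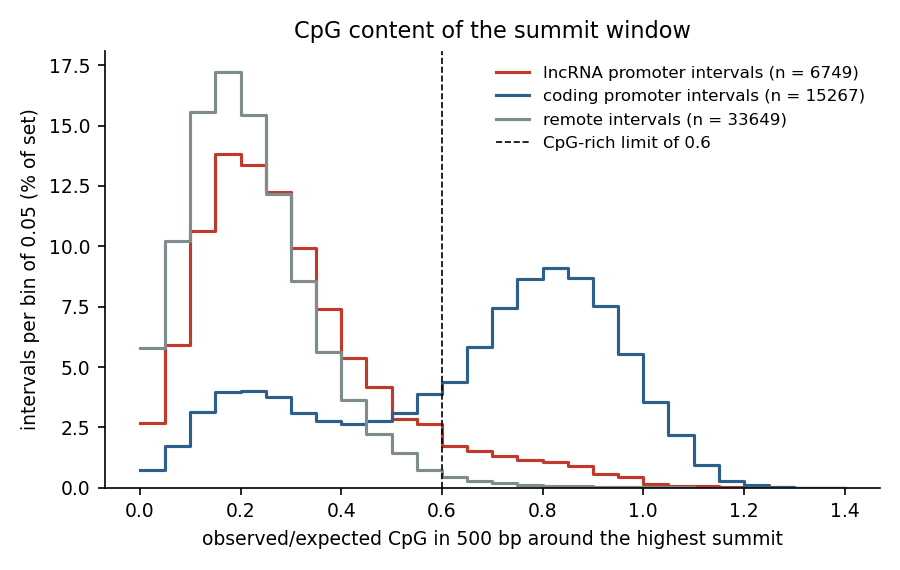
Share (%) of intervals per bin of the observed/expected CpG ratio in 500 bp around the highest summit, for the lncRNA promoter, coding promoter and remote intervals. The lncRNA promoter intervals peak low, as the remote intervals do, and carry a tail past the dashed limit of 0.6, where most coding promoter intervals lie.

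The CpG-rich members were stronger on the scale used to choose members, with a median fold of 21.2 against 10.5 in the others. The CpG-rich share was 3.77% between folds of 5 and 10, 6.13% between 10 and 20, 15.1% between 20 and 50, and 51.4% of the 138 members between 50 and 100. Start sites of lncRNAs on both strands lay within 1 kb of the summit in 26.6% of the CpG-rich members and 8.18% of the others, a difference of 18.4 percentage points (14.7 to 22.4). The nearest transcript had a single exon in 17.6% of CpG-rich members and 6.65% of the others, a difference of 11.0 points (7.91 to 14.5). CpG-rich members thus more often had starts in both directions and unspliced transcripts in the annotation.

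The position of the summit differed as well. The highest summit lay within 200 bp of an lncRNA TSS in 2854 members (42.3%, 41.1% to 43.5%) and within 1 kb in 75.5%, while 71.7% of coding promoter intervals had theirs within 200 bp of a coding TSS. The difference was -29.5 percentage points (-30.8 to -28.1), and it was -15.6 points (-19.7 to -11.7) between the CpG-rich intervals of both sets and -10.5 points (-12.3 to -8.74) between the others. Among summits within 200 bp, 64.4% in the members and 57.1% in coding promoters lay upstream of the TSS, a difference of 7.33 points (5.33 to 9.30). The median member summit within 200 bp sat 18 bp upstream of the TSS. Restricting the lncRNA annotation to 1 canonical transcript per gene left 4909 members, of which 35.2% had the summit within 200 bp.

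**Figure D3:**
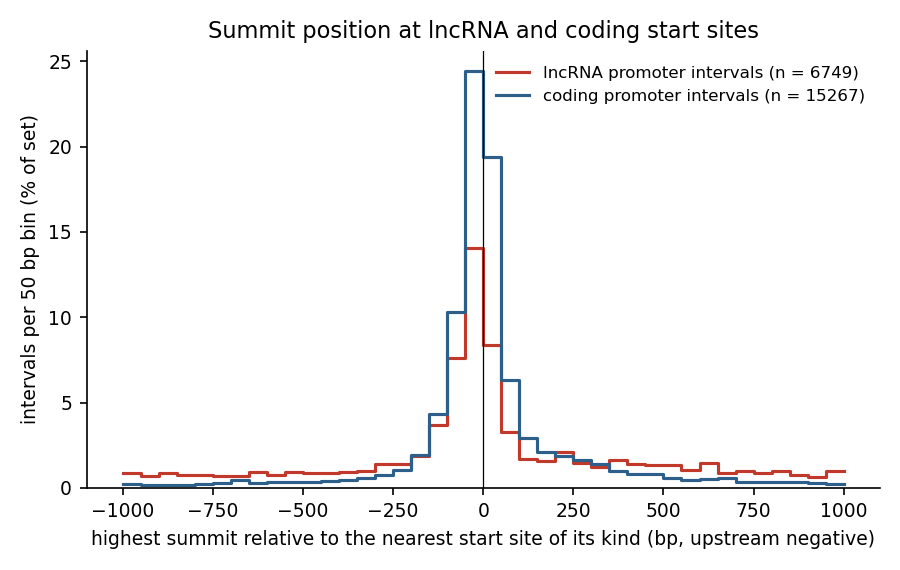
Share (%) of intervals per 50 bp bin of the distance from the nearest TSS of its kind to the highest summit, with upstream negative, for the lncRNA and coding promoter intervals. Both sets peak just upstream of the TSS, the lncRNA set lower and with a wider spread on either side.

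A TATA box, searched as TATAAA on the strand of the transcript between bases -40 and -20, was found at 23 of the 2854 lncRNA starts with a summit within 200 bp (0.806%) and at 53 of 10954 coding starts (0.484%). The difference of 0.322 percentage points had an interval of 0.0154 to 0.738. This exact match was thus rare at both kinds of start. The share expected from base composition was not computed, so these values do not measure how common TATA boxes are.

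Being away from coding start sites did not mean being outside coding genes. Of the members, 1647 (24.4%, 23.4% to 25.4%) overlapped the body of a protein-coding gene, compared with 56.4% of remote intervals, a difference of -32.0 percentage points (-33.1 to -30.8). In 1261 members (18.7%) the lncRNA ran antisense to the gene that held the summit, and in 306 (4.53%) on the same strand. The median distance of a member from the nearest coding TSS was 33.9 kb. It was 3 to 10 kb for 17.8% of the members, 10 to 50 kb for 43.9%, 50 to 100 kb for 17.8% and more for 20.5%.

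Consensus sequences of transcription factors were searched in the 200 bp around each summit, on both strands. The letters were CAAAGTCCA for HNF4, TCAAGGTCA for the estrogen-related receptors (ERR), CCGGAAGT for ETS factors, GGGCGG for the GC box, AGCCAAT for NF-Y, TGACGTCA for the cAMP response element (CRE), AAGATGGCG for YY1 and TGANTCA for AP-1. CTCF, NFI and NRF1 were searched with longer degenerate consensus sequences, CTCF and NFI with 1 mismatch allowed. A match to one of these can share bases with a match to another, as at the edge of a CTCF match and a GC box. A match describes letters and does not show that a factor was bound.

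Factors of distal elements and of the tubule were matched in the members more often than in coding promoters. CTCF, which anchors chromatin loops, was matched in 933 members (13.8%, 13.0% to 14.7%), 7.40% of coding promoter intervals and 16.0% of remote intervals. The share of members was 4.34% with 0 mismatches allowed and 8.43% without the fold limit. AP-1, which binds many enhancers, was matched in 17.8%, 6.22% and 20.7%. HNF4, a factor of the proximal tubule, was matched in 1.59% of members, 0.616% of coding promoters and 1.77% of remote intervals. ERR, a family that drives oxidative metabolism, was matched in 0.607%, 0.197% and 0.606%, and NFI in 2.42%, 0.969% and 2.68%. Against coding promoters all 5 intervals of the difference excluded 0, from 0.411 points for ERR (0.231 to 0.634) to 11.6 for AP-1 (10.6 to 12.6). Against remote intervals the members were lower for CTCF by -2.15 points (-3.04 to -1.22) and for AP-1 by -2.90 (-3.90 to -1.88), whereas the intervals for HNF4 (-0.494 to 0.168), ERR (-0.181 to 0.230) and NFI (-0.643 to 0.169) included 0.

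Factors of CpG-rich promoters showed the opposite order. The GC box, bound by SP1 and its relatives, was matched in 15.02% of members, 54.5% of coding promoters and 5.82% of remote intervals. ETS was matched in 0.696%, 5.67% and 0.264%, NRF1 in 0.593%, 6.65% and 0.149%, NF-Y in 3.72%, 8.71% and 3.03%, CRE in 0.667%, 2.50% and 0.348%, and YY1 in 0.445%, 1.85% and 0.155%. The members lay below coding promoters and above remote intervals in all of these, and each difference had an interval that excluded 0. In the central 200 bases of 32851 RefSeq promoter windows (GRCm38.p6), the GC box was matched in 31.05%, CTCF in 3.26% and AP-1 in 5.48%.

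**Figure D4:**
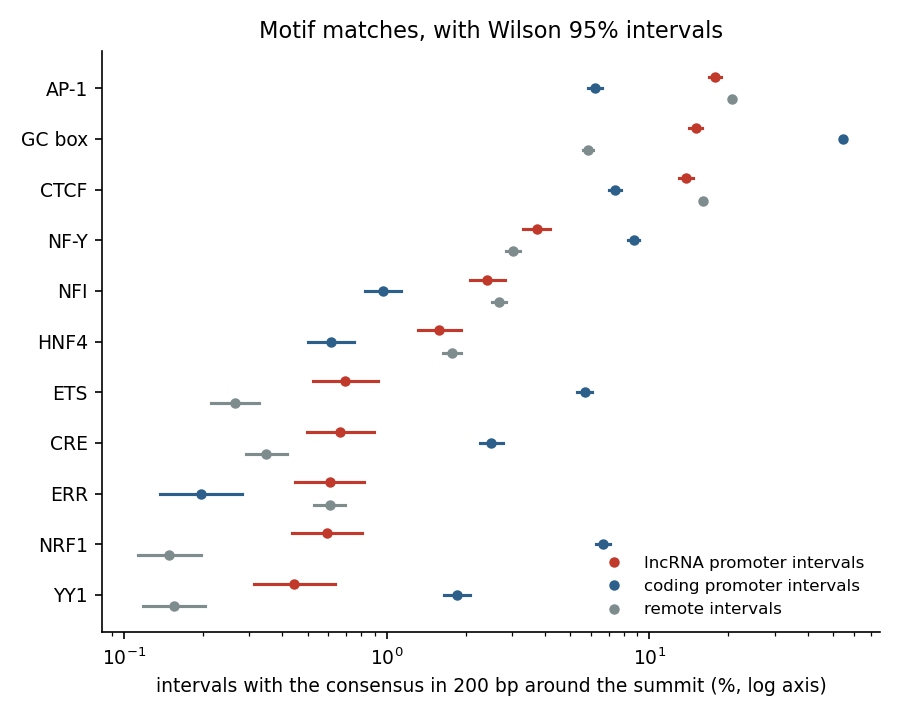
Share (%, log axis) of lncRNA promoter, coding promoter and remote intervals with each consensus in the 200 bp around the summit, as points with Wilson 95% intervals. For the GC box, NF-Y, ETS, CRE, NRF1 and YY1 the lncRNA points lie between coding promoters on the right and remote intervals on the left, while for AP-1, CTCF, NFI, HNF4 and ERR they lie near the remote intervals.

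The motif shares moved with CpG class. Within the members, the GC box was matched in 62.6% of CpG-rich and 11.0% of other windows, and AP-1 in 4.74% and 18.9%. CTCF did not follow this split, with 13.3% and 13.9% and a difference of -0.587 points (-3.36 to 2.69). Compared within the same class, CpG-rich members had more CTCF matches than CpG-rich coding promoters (13.3% against 5.39%, difference 7.89 points, 5.22 to 11.1) and fewer ETS (-4.02 points, -5.53 to -1.89) and NRF1 matches (-4.73 points, -6.46 to -2.40), whereas the interval for CRE (-1.67 to 1.24) included 0. Among CpG-poor windows the excess over coding promoters was 2.97 points for CTCF (1.78 to 4.16) and 5.67 for AP-1 (4.34 to 6.98), and the intervals for HNF4 (-0.188 to 0.718) and YY1 (-0.206 to 0.253) included 0.

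The matches themselves are shown with 8 bases on each side, in capitals, for some of the strongest members without repeated windows, so that the core and its variation can be seen. They are matches to CTCF.
Gm56789, chr3:65882170-65882197, plus strand: tgggaaagCCAGCAGGGAGCcgcgctgg
Gm73532, chr7:73268255-73268282, minus strand: gcgtccggCCACCAGGGGGCagccgcgc
Gm57280, chr5:36870518-36870545, plus strand: cctggggcCCAGCCGAGGGCctggcacc
Gm64742, chr3:19948958-19948985, minus strand: gggaaaggCCAGCAGAGGGCggcattgg

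These intervals had folds of 72.3 (Gm56789), 70.1 (Gm73532), 69.3 (Gm57280) and 68.7 (Gm64742).

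Lists of 94 known lncRNA names were then followed. Of these, 37 had a member and 31 had their strongest interval within 3 kb of a coding TSS. A further 7 stayed under a fold of 5 and 3 had no interval within 1 kb. The other names were not on an autosome (5), carried another gene type (3) or were not found in the annotation (8). Among the 31 near a coding TSS, Hottip (4.12), Evx1os (3.40) and Six3os1 (2.68) also stayed under a fold of 5. The background of 37.4% counts intervals rather than names and is not a share to compare with. Over all autosomal lncRNA genes, 21.2% had a member. The written lists are not a random draw of these genes, so nothing is read from the counts of this or the following lists. The highest summit lay within 200 bp of a start of the named lncRNA in 26 of the 37 and beyond 1 kb in 6, and a start of another lncRNA was nearer to it in 11, so the folds below belong to intervals that reach the named start and not always to that start.

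The list headed nuclear architecture, which also takes in lncRNAs with other roles such as Norad and Oip5os1, had members for 7 of 11 names. Neat1, which scaffolds paraspeckles, lay in an interval with a fold of 43.5, and its highest summit was 134 bp from a Neat1 start. That interval was 32589 bp wide, and the start nearest to the summit, at 2 bp, was that of Frmd8os. Oip5os1 (Cyrano, which directs decay of miR-7) reached 40.8, Lncpint 39.2, Pvt1 23.3, Norad, which sequesters Pumilio proteins, 14.1, and Trp53cor1, a p53 target beside Cdkn1a, 7.79. Malat1, an abundant nuclear speckle lncRNA, had its strongest interval at 37.5 (chr19:5848609-5871227, 22619 bp wide), but the highest summit there lay 12553 bp upstream of the nearest Malat1 TSS. Neat1, Norad, Oip5os1 and Lncpint were the 4 CpG-rich ones. Miat stayed at 2.36.

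snoRNA hosts, whose introns carry guides for the modification of ribosomal RNA, had members for 10 of 19 names, 8 of them CpG-rich. Snhg8 led at 93.9, followed by Snhg5 and Snhg6 at 59.6 each, Epb41l4aos at 41.8, Snhg15 at 36.6 and Snhg12 at 25.5. Snhg7 stood at 20.03, Snhg20 at 19.7, Snhg17 at 19.4 and Snhg16 at 7.40. The summit lay 3726 bp from the Snhg20 start and 2122 bp from the Snhg16 start, and at Snhg5 the start of Gm67903, at 32 bp, was nearer than that of the host, at 178 bp. Of the others, 8 hosts had a coding TSS within 3 kb, and Snhg11 stood at 4.71. By annotation, 42 lncRNA genes with a member held 73 snoRNA genes within their bounds, and 20 of these genes had a CpG-rich member at their highest fold. Snhg20 was not among the 42, and the small RNA gene found within it was a miRNA gene, Mir6516.

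miRNA hosts had members for 9 of 15 names, 4 of them CpG-rich. Mir17hg, the host of the miR-17~92 cluster that promotes growth of progenitor cells, reached 65.7 (chr14:115276185-115281821). Dleu2, the host of miR-15a and miR-16-1, reached 40.4, Mir670hg 30.3, Mir155hg, active in immune cells, 26.1, Mir99ahg 25.01 and Carmn, a smooth muscle lncRNA, 23.3. Mir9-3hg stood at 14.9, Mir100hg at 9.43 and Mir124-2hg at 5.56. At Mir155hg the start of Gm61074, at 92 bp, was nearer to the summit than that of the host, at 189 bp. At Mir9-3hg the start of Gm72221 was nearer, at 401 bp against 523 bp. By annotation, 95 lncRNA genes with a member held 138 distinct miRNA genes, and 26 of these hosts were CpG-rich at their strongest member. Carmn was not among the 95. Outside the list, 6720427I07Rik, which holds the genes of let-7a-1, let-7d and let-7f-1, reached 78.0 and Gm20732, which holds Mir30d, reached 64.4.

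Mature miRNAs whose genes lie in some of these hosts are shown to make clear which products share a seed, bases 2 to 8, in capitals (RefSeq, GRCm38.p6, 8 of 9 arms sought were matched). They fall into 4 seeds. The host given need not be the only one, as Mir100hg also holds a let-7a gene, Mirlet7a-2.
let-7a-5p, from 6720427I07Rik: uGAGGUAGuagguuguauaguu
let-7d-5p, from 6720427I07Rik: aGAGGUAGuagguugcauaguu
let-7f-5p, from 6720427I07Rik: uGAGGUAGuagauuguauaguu
miR-17-5p, from Mir17hg: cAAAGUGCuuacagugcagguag
miR-20a-5p, from Mir17hg: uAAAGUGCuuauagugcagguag
miR-15a-5p, from Dleu2: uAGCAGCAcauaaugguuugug
miR-16-5p, from Dleu2: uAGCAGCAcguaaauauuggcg
miR-155-5p, from Mir155hg: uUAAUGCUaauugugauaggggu

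Imprinted lncRNAs, expressed from 1 parental allele, had members for 4 of 9 names and none was CpG-rich by the limits used. Mirg stood at 24.2, with the summit 1232 bp from its start, Kcnq1ot1, which silences its neighbours in cis, at 21.0 (chr7:142848535-142851104), Airn, the silencer of Igf2r, at 15.5 (chr17:12958539-12963664) and Rian at 10.3. H19 stood at 3.34 and Snhg14 at 2.03, and Meg3 had no interval within 1 kb. The summit lay 34 bp upstream of the TSS for Kcnq1ot1 and 7 bp upstream for Airn.

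lncRNAs beside regulators of kidney development were mostly barred by the rule: 14 of 20 names had a coding TSS within 3 kb of their strongest interval, and 3 had a member. Wt1os reached 30.1, Hnf4aos 19.4 and Lhx1os 6.42. lncRNAs known from other organs had members for 4 of 16 names, with folds of 25.1 for Pantr2, 22.3 for Bvht, 10.9 for Sox2ot and 7.46 for Rmst, the summits of the last pair lying 1499 and 1010 bp from their starts. In bulk tissue, signal from few cells of a type and weak signal in many cells cannot be told apart, so these values do not place an lncRNA in a cell type.

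**Figure D5:**
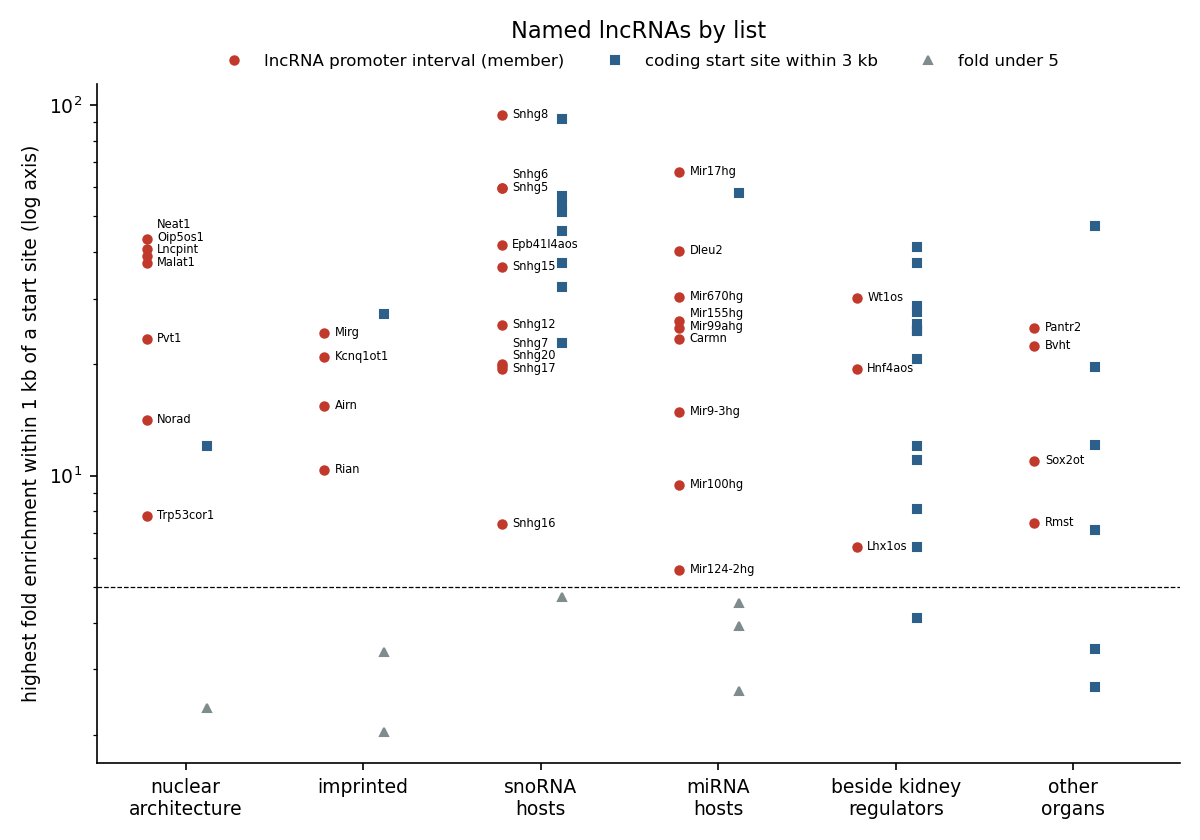
Highest fold enrichment (log axis) within 1 kb of a start site for the named lncRNAs of 6 lists, with members as labelled circles. Squares are lncRNAs whose strongest interval has a coding TSS within 3 kb, at any fold. Triangles are the others under the limit of 5 (dashed line). Snhg8 is the highest member at 93.9 and Mir124-2hg the lowest at 5.56.

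Around 45 kidney genes, 43 members lay within 100 kb of the TSS of 24, each taken as the nearest coding gene. The same count was not made over all coding genes, so these numbers do not show a gathering of members at kidney genes. Among the transcription factors, Tfcp2l1, a regulator of the collecting duct, had 3 members with a highest fold of 51.3 at Gm70019, whose summit lay 5030 bp upstream of the nearest lncRNA TSS. Tfap2a had 1, the CpG-rich Gm47061 at 38.1. Pax2 had 6 (highest 18.8) and Pax8 5 (highest 21.1), both needed to form the nephron. Sall1 had 4 (highest 23.2) and Osr1 1 at 22.1.

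Among genes of transport, Gm61255 stood at 30.3 with its summit 6.37 kb from the TSS of Slc34a1, the phosphate transporter of the proximal tubule. Gm64132 stood at 27.2, inside Slc12a3, the thiazide-sensitive cotransporter. Cubn, the receptor for filtered vitamins and proteins, had 2 members at 12.2 and 7.59, the water channels Aqp1 and Aqp2 had 1 each at 11.7 and 7.46, and Lrp2, Umod and Slc12a1 had none. Of the genes in the study's question, Jak1, a cytokine receptor kinase, had 1 member, the CpG-rich Gm57083 (chr4:101148428-101151596) at 41.0, whose summit lay 33 bp from the lncRNA TSS and 26.9 kb from the TSS of Jak1. Jak2 and Acly had none. Distance alone was measured here, and a link between these intervals and the genes was not tested.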

How the data were processed

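ATAC-seq libraries of kidney from 3 WT and 3 Acly cKO mice were grouped by their labels. By their methods, the authors ran fastp for trimming, Bowtie2 2.3.4.3 for alignment to mm39, kept unique reads without duplicates, called peaks with MACS3 3.0.0 (extension size 200) and took out blacklisted regions with BEDTools 2.29.1. The study also counts WT libraries deposited earlier, not analysed here, and which libraries entered the pool is not given in the sources used here. The deposited list gives fold enrichment, a linear ratio computed by the authors, and the −log10 q as the authors' caller wrote it, together with a display score and the summit offset from the authors' caller. The deposited summit list before filtering was not used.

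Each distinct interval took the values of its summit with the highest q. Distances were measured to GENCODE M39 on GRCm39, and 0 of 279569 intervals ended beyond their chromosome. Shares have Wilson and differences Newcombe intervals at a confidence level of 95%, with no p-value, because regions are not replicates. Genes are named by fold rank (the first 10), from written lists, or by distance to kidney genes (100 kb), with further examples chosen after their values were seen. The members and lists were chosen with earlier results of these data known. A consensus and some genes of these lists are not reported here. On simulated data, 28 of 28 rule cases and 6000 of 6000 planted motifs were recovered. Python 3.11.15, numpy 2.4.6, pandas 2.3.3 and pysam 0.24.0 were used.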

Additional observations from a re-analysis of the deposited data

How the results depend on the processing

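No paired analysis was possible because the pooled list has no column per sample, and for the same reason no replicate could be left out. Number of members: 18063 with no fold limit, 3698 at folds of at least 10 and 3051 at folds of 5 to 10. CpG-rich share: 4.19% with no limit, 11.1% at folds of at least 10, 3.77% at 5 to 10, 9.88% with distances taken from the summit, 9.09% with canonical lncRNA transcripts and 10.5% in a 200 bp window. Difference in CpG-rich share from coding promoters: -38.1, -60.1, -22.3, -59.4 and -54.4 points under the first 5 of these, and -48.5 with coding genes taken by gene type. Share overlapping a coding gene: 26.8% with no limit, 22.6% by summit distance, 29.2% with canonical transcripts, 20.9% by gene type and 20.7% at over 10 kb from coding starts. Share with the summit within 200 bp: 37.1% with no limit, 44.5% at folds of at least 10, 39.6% at 5 to 10, 56.0% by summit distance and 35.2% with canonical transcripts. Share with the CTCF consensus: 8.43% with no limit, 12.5% at folds of at least 10, 15.4% at 5 to 10 and 4.34% with 0 mismatches. The difference in CpG-rich share from coding promoters kept its sign under every setting tried for it. The other differences were not recomputed. The cause of these shifts was not tested, except that a fold limit or stricter match changes the intervals counted by construction. Distances taken from the summit also bar summits beyond 1 kb of an lncRNA TSS, which bears on the share within 200 bp by construction. Depth per sample is unknown.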

Other observations

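lncRNAs on the X chromosome lay outside the rule. The strongest interval within 1 kb of a start of Ftx had a fold of 37.4, that of Firre 37.8, that shared by Xist and Jpx 14.7 and that of Tsix 6.15. Several well-known lncRNAs had a strong interval with a coding TSS within 3 kb and so were not members: Snhg10 stood at 91.4, Mir22hg at 58.0, Gas5 at 56.6, Zfas1 at 53.6, Pantr1 at 47.0, Gata3os at 41.4 and Hotairm1 at 28.7. At such starts the signal of the lncRNA and of the coding gene cannot be told apart.

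The widest member (44539 bp, 142 summits, fold 32.8) lay over Gm73644 inside Tns3, which encodes a focal adhesion protein, and its highest summit was 10003 bp from the nearest lncRNA TSS.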
